A study of Mus musculus with 4 samples.

Results

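The genes described are 10 brakes and adaptors of NF-kB signalling: Tnfaip3, Tnfaip2, Tnip1, Tnip2, Tnip3, Traf1, Birc3, Cyld, Ripk2 and Ier3. They were chosen by name from the 23779 genes that a deposited RNA-seq count table holds, with earlier results of these data known. Each gene is represented by its most abundant RefSeq transcript record. The table has 4 libraries of BV-2, an immortalised mouse microglial line used as a stand-in for brain macrophages. There are 2 control libraries and 2 libraries of cells treated for 4 h with lipopolysaccharide (LPS) at 10 ng/ml, the endotoxin that activates Toll-like receptor 4. The titles of the controls also give 4 h, no vehicle is named, and the labels leave unsaid whether the libraries come from different cultures, so the p-values reflect the spread of these libraries alone, which may be technical. The comparison asks how transcripts of the line respond to LPS.

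Engaged Toll-like and TNF receptors build chains of ubiquitin on adaptor proteins, and these chains recruit the kinases that free NF-kB to enter the nucleus. The brakes act on those chains. Tnfaip3 encodes A20, a ubiquitin-editing enzyme; Tnip1, Tnip2 and Tnip3 encode the ABIN proteins, which bind A20 and ubiquitin; and Cyld encodes a deubiquitinase. Traf1, Birc3 and Ripk2 encode adaptors and a kinase of receptor complexes, and many of these genes are themselves NF-kB targets in macrophages, which closes a feedback loop.

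Promoter windows of 9 of the 10 genes were available from RefSeq on GRCm38.p6, running from 250 bases before to 50 bases after a start. A match to the kB consensus, the 10-base motif that NF-kB dimers bind, read on both strands with overlapping matches kept, was present in a window of 6 of the 9 genes, and 9.55% of all 27025 genes with a window hold one (8.46% of 32851 windows). The 150 bases before the start of the window's transcript are shown for 4 of the 6, because Tnip3 and Ier3 are among the genes that rose and Tnfaip3 and Tnip1 are A20 and its partner. They are written 5′ to 3′ on the strand of the gene, with the matched bases in capitals.
Tnip3 (chr6:65590248-65590397, plus strand): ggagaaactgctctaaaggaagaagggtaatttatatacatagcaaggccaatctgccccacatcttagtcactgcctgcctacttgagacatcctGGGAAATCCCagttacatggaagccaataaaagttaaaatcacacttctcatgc
Ier3 (chr17:35821563-35821712, plus strand): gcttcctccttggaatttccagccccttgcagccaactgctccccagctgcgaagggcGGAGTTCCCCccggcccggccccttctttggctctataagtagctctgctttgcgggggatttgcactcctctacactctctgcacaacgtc
Tnfaip3 (chr10:19015411-19015560, minus strand): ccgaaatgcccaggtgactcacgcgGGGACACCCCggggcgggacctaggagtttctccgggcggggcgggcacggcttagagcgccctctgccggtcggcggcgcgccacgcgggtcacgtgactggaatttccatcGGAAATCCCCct
Tnip1 (chr11:54962941-54963090, minus strand): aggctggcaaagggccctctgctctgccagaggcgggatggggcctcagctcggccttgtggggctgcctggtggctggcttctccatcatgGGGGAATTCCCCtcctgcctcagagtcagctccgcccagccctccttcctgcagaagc

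In Tnip3 the match begins 54 bases before the start and reads the consensus on either strand. In Tnfaip3 there are matches at 125 and 12 bases before the start, and in Tnip1 4 overlapping readings fill the 12 capital letters shown. Ier3 has its match at 92 bases before the start and Tnfaip2 and Cyld, not shown, have theirs at 24 and 155. The starts of these windows are not always the outer ends of the genes. Those of Tnip1, Cyld and Tnfaip2 lie 16, 150 and 211 bases inside the gene spans given below. The last 16 bases shown for Tnip1, the match of Tnfaip2 and part of the match of Cyld are therefore within the gene. For Tnip1 and Tnfaip2 the bases after that start were matched to no transcript of the gene in GENCODE M21. The windows of Traf1, Birc3 and Tnip2 hold no such letters. A match is a description of the sequence and no binding was measured.

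Library totals ran from 2778686 to 3368693 counts, of which 5 abundant records took 53.4% to 67.5%, more in control replicate 1 than elsewhere. Of 12 microglia and macrophage markers, 9 had at least 10 counts, with a summed count of 5238 to 8264 per library, while Itgam, which has 2 records in the table, was at 0. The summed counts of astrocyte, oligodendrocyte, neuron and fibroblast or endothelial markers were 0 to 2 per library and list, with Gfap, Mbp, Mog and Col1a1 among those at 0. Genes with 2 or more records were rarely counted here, as described below, and the records of these markers are not given. A marker at 0 therefore does not by itself show that a cell type is absent. In bulk RNA, fewer cells of a kind and less RNA per cell cannot be told apart.

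Of the 10 genes, 7 passed the filter on low counts and 3 did not, namely Tnfaip3, Tnip1 and Cyld. After LPS 6 of the tested genes rose at least 2-fold (Tnfaip2, Tnip3, Traf1, Birc3, Ripk2 and Ier3), none fell, and Tnip2 did not pass edgeR's quasi-likelihood test at an adjusted p below 0.05. Among all 6981 records tested, 5.53% passed, 3.82% rising and 1.7% falling, and 3.38% rose at least 2-fold. Because the genes were chosen with earlier results of these data known, the contrast with this share is a description and no test. Both LPS libraries lay above both controls in the same 6 genes, as they did in 21.4% of all tested records. Tnfaip2, Tnip2, Birc3 and Ier3 would have passed the filter on their control libraries alone. Tnip3 and Ripk2 reached its cut in 1 control library, which is not enough, and passed it with the LPS libraries. Traf1 passed it only through LPS, so that Traf1 had to differ to be tested.

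**Figure D1:**
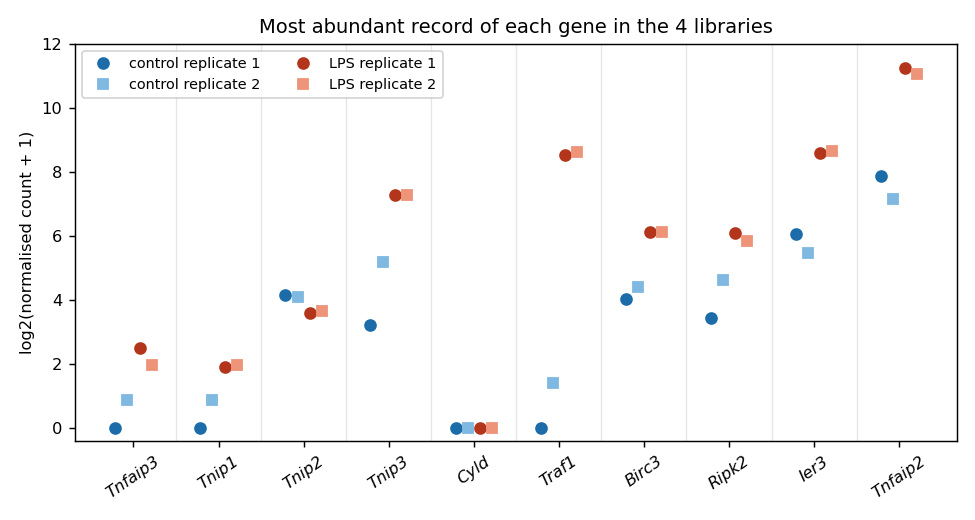
Levels of the most abundant record of each of the 10 genes, as log2(normalised count + 1), in each of the 4 libraries (points; blue control, red LPS; circles replicate 1, squares replicate 2). The LPS points lie above the control points in the 6 genes that rose, Tnip2 lies slightly lower after LPS, and Cyld is at 0 in all 4.

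Of the 3 A20-binding proteins, 2 were tested and 1 of them rose. Tnip3 encodes ABIN-3 (NM_001001495, chromosome 6, 65590398 to 65634040) and had 8.44 and 35.4 normalised counts in the controls and 153 and 156 after LPS. The LPS libraries were nearly equal and well above both controls, while control replicate 2 was several times as high as control replicate 1. Tnip3 rose by a fitted log2 fold change of 2.68 (SE 0.395, adjusted p 0.00157), a 6.40-fold rise, which was 4.17 on the log2 scale without control replicate 2 and 2.13 without control replicate 1. Tnip2 encodes ABIN-2 (NM_139064, chromosome 5, 34496096 to 34513979), a partner of A20 and of the kinase Tpl2, and had 16.9 and 16.0 normalised counts in the controls and 11.1 and 11.7 after LPS. Both LPS libraries lay below both controls, as in 21.9% of tested records, but the depth was 12 to 19 counts per library and the fitted log2 fold change of -0.52 did not pass (95% interval -1.40 to 0.37, adjusted p 0.672). That interval holds no rise of the size seen in Tnip3, and the difference between the 2 genes was not itself tested.

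Traf1 and Tnfaip2 moved furthest. Traf1, an adaptor that joins TRAF2 and the cellular inhibitors of apoptosis at TNF receptor family members (NM_009421, chromosome 2, 34941750 to 34961812), had 0 and 2 control counts against 400 and 404 after LPS. It was all but absent from the controls and at a like level in both LPS libraries, 370 and 395 normalised counts. The rate ratio was 362, with an exact 95% interval of 99.9 to 2996 for counting error only. The adjusted p in edgeR was 3.73e-07, but Traf1 passed the filter on low counts only through LPS. It had to differ to be tested, so this p adds no separate support. Leaving out control replicate 2 leaves Traf1 with no control count, so that its fitted value then depends on the prior count. Tnfaip2 (NM_009396, chromosome 12, 111442450 to 111455018), a TNF-induced gene whose protein, M-Sec, takes part in forming membrane nanotubes, had 236 and 143 normalised counts in the controls and 2454 and 2143 after LPS. Tnfaip2 rose 12.3-fold, which is 3.62 on the log2 scale with an SE of 0.253 (adjusted p 6.41e-06). It shares 150 exon bases with the antisense gene Gm40578, and the strand setting of the counting is not given in the sources used here.

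Birc3 and Ripk2 rose by smaller and similar amounts. Birc3 encodes cIAP2, a ubiquitin ligase of the TNF receptor complex (NM_007464, chromosome 9, 7847468 to 7873205), and had 15.5 and 20.3 normalised counts in the controls and 69.3 and 68.5 after LPS. The groups were far apart next to their spread, and Birc3 rose 3.75-fold (log2 fold change 1.91, SE 0.298, adjusted p 0.00244). Its paralog Birc2, which encodes cIAP1, had 23.1 ± 0.797 normalised counts in the controls and 20.4 ± 0.139 after LPS (SD, n = 2) and did not pass the test (adjusted p 0.913 in edgeR). Ripk2 encodes the kinase that carries signals from the NOD receptors to ubiquitin ligases (NM_138952, chromosome 4, 16122732 to 16163678) and had 9.85 and 23.6 normalised counts in the controls and 67.5 and 56.7 after LPS. The higher control was still well under the lower LPS library, and Ripk2 rose 3.45-fold (log2 fold change 1.79, SE 0.363, adjusted p 0.0130), with a log2 fold change of 2.64 without control replicate 2 and 1.40 without control replicate 1.

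Ier3, an immediate early gene whose small protein acts on survival and ERK signalling (NM_133662, chromosome 17, 35821713 to 35822911), had 66.1 and 43.0 normalised counts in the controls and 382 and 406 after LPS. The groups were far apart, and Ier3 rose 7.38-fold (log2 fold change 2.88, SE 0.244, adjusted p 2.14e-05).

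**Figure D2:**
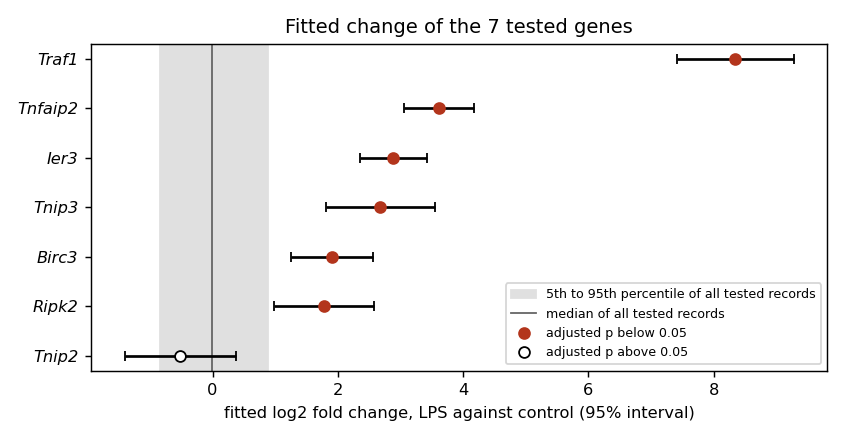
Fitted log2 fold change after LPS of the 7 tested genes (points, with 95% intervals; filled where the adjusted p is below 0.05), beside the 5th to 95th percentile (grey band) and the median (line) of all 6981 tested records. The 6 filled points lie right of the band, which runs from -0.84 to 0.89, and the interval of Tnip2 crosses 0. The fitted interval of Traf1, 7.41 to 9.28, is narrower than the exact interval of its rate ratio for counting error only. It therefore overstates the precision of that change.

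Per kilobase of transcript the order of the genes changed with LPS. In the controls Tnfaip2 and Ier3 stood highest, with 50.4 ± 17.6 and 48.3 ± 14.4 normalised counts per kilobase (SD, n = 2), and did not differ beyond their spread. Below them Tnip2 had 8.28 ± 0.300, Birc3 6.70 ± 1.27, Ripk2 6.22 ± 3.62 and Tnip3 5.82 ± 5.07 normalised counts per kilobase, where the libraries of Ripk2 and Tnip3 overlapped those of Tnip2 and Birc3, and Traf1 was last with 0.363 ± 0.513. After LPS the order was Tnfaip2 with 611 ± 58.5, Ier3 with 348 ± 15.0, Traf1 with 164 ± 7.69, Tnip3 with 41.1 ± 0.563, Birc3 with 25.8 ± 0.234, Ripk2 with 23.1 ± 2.83 and Tnip2 with 5.74 ± 0.228. Traf1 thus went from the lowest of the 7 to the third. It was among the 7 only through its LPS libraries, so that it had to rise to be ranked. Tnip2, whose place in the controls is not separated from those of Ripk2 and Tnip3, was lowest after LPS.

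Tnfaip3, Tnip1 and Cyld, which include the central brake A20, were hardly counted at all. Tnfaip3 (chromosome 10, 19000910 to 19015410) has 2 records, NM_001166402 with 0 and 1 counts in the controls and 5 and 3 after LPS, and NM_009397 with 0 and 0 in the controls and 2 and 7 after LPS. Summed over both records, Tnfaip3 had 0 and 1 counts in the controls and 7 and 10 after LPS, a rate ratio of 15.3 with an exact 95% interval of 2.40 to 640 for counting error only. Both records leaned the same way, but without the filter on low counts the adjusted p was 0.483 and 0.106 in edgeR. NM_009397 alone was 2.70-fold above a floor of 3 counts over both controls. That value takes its few LPS counts as exact and is no lower limit. Tnip1, which encodes ABIN-1 (chromosome 11, 54910787 to 54962956), had counts in only NM_001199275 of its 5 records, 0 and 1 in the controls and 3 and 3 after LPS. Its rate ratio of 5.41 had an interval of 0.656 to 249, which includes no change (adjusted p 0.760 in edgeR without the filter). Cyld (chromosome 8, 88696878 to 88751946) had 0 counts in all 4 of its records and all 4 libraries, which allows up to 3 counts, or 1.58 normalised counts in the controls and 1.43 after LPS.

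These low counts went with the number of records a gene has. All 7 tested genes have 1 record each, and the 3 untested genes have 2, 5 and 4. Among all genes 34.8% of 19014 genes with 1 record were tested, against 6.09% of 4765 genes with 2 or more. Counts also went with the exon bases that no other record of the same gene covers, called here a record's own bases. Across 8743 records of such genes, 0.616% of those with 0 own bases had any count, 13.0% of those with 1 to under 100, 31.7% of those with 100 to under 300 and 42.8% of those with 300 or more. NM_009397 and NM_001166402 of Tnfaip3 have 261 and 173 own bases, and NM_001199275 of Tnip1 has 159. The other 4 records of Tnip1, which have 0 own bases, were at 0 counts, and the 4 records of Cyld have 0 to 14 own bases. The levels of these 3 genes are therefore not comparable with those of the other 7, and how the counting treated reads shared by several records is not given in the sources used here.

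**Figure D3:**
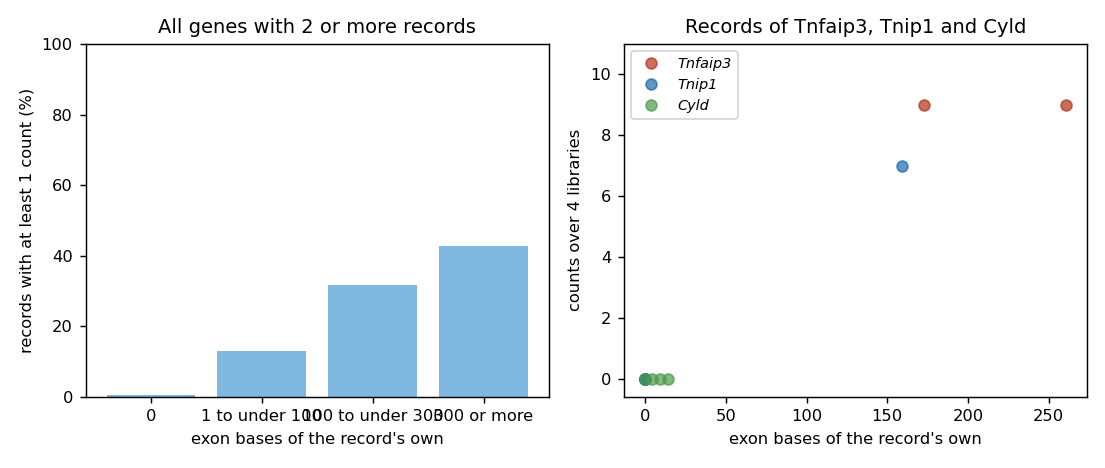
Left, share of records with at least 1 count over the 4 libraries, in percent, by the exon bases of the record's own, for 8743 records of genes with 2 or more records. Right, counts over the 4 libraries against own bases for the records of Tnfaip3 (9 counts each), Tnip1 and Cyld, where the records with counts are those with 159 own bases or more.

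The control libraries differed from each other along the GC content of the transcripts. In records below 45% GC the median log2 ratio of control replicate 1 over replicate 2 was -0.55, and in records of 55% or more it was 0.40, against -0.15 and 0.07 for the LPS libraries. Spearman's rho with GC content was 0.662 in the control pair and 0.267 in the LPS pair over 6954 records, which share their libraries and are not independent. The genes described followed this gradient in part. Tnip3, at 40.0% GC the lowest of the 7, had a log2 ratio of -1.95 between the controls. Ripk2 and Birc3, at 47.4% and 47.5%, had -1.18 and -0.37, while Ier3 and Tnfaip2, at 54.4% and 56.3%, had 0.61 and 0.72. Tnip2, at 54.5% GC close to Ier3, had 0.07. Traf1, with its 2 control counts, lay off the gradient at 55.2% GC and -1.43. In the LPS pair the 7 ratios ran from -0.10 to 0.25. After a GC and length trend had been taken out of each library, the log2 fold change of Tnip3 was 2.61 (adjusted p 6.38e-06) and that of Ripk2 1.74 (adjusted p 0.00161) in edgeR.

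**Figure D4:**
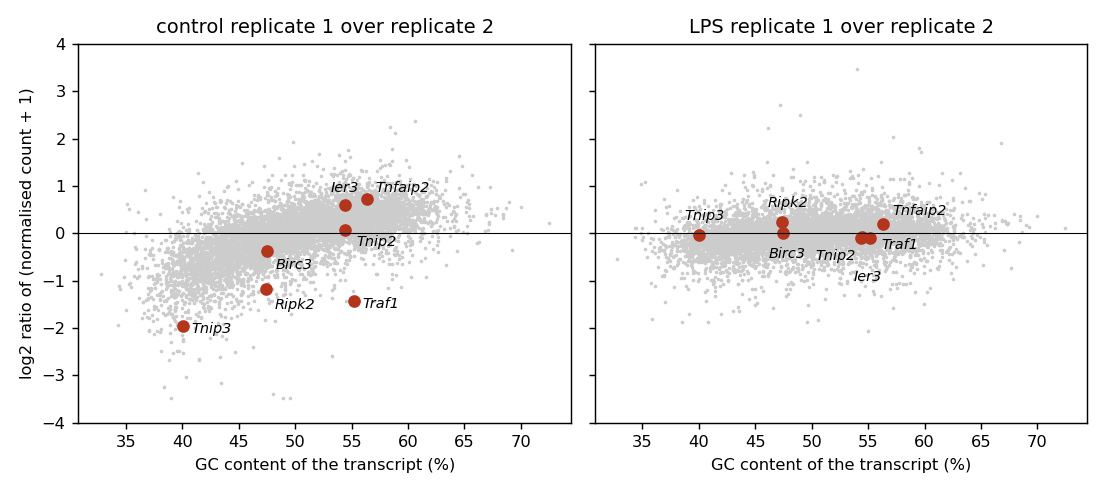
Log2 ratio of replicate 1 over replicate 2, from normalised counts plus 1, against the GC content of the transcript in percent, for the control pair (left) and the LPS pair (right). Grey points are 6954 tested records and red points the 7 tested genes, which spread from -1.95 to 0.72 in the controls and stay close to 0 after LPS.

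Other genes of the pathway, 60 genes in 6 lists by role, were taken from the same fit. Of the 60, 38 were tested, 8 rose and none fell, and the median log2 fold change of the tested genes was 0.15, against -0.01 over all records. Over all tested records 3.82% rose and 1.7% fell, and a count of 0 in a list of 4 to 9 tested genes lies near that background and is no result about the list. The lists too were chosen with earlier results of these data known, so their calls are no test against that background. Here too the tested genes were mostly those with 1 record: 36 of 38 with 1 record and 2 of 22 with more.

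The proteins that work directly with A20 and with linear ubiquitin chains gave no calls among 9 tested of 11 genes. Otulin, the deubiquitinase of linear chains, had 296 ± 38.4 normalised counts against 395 ± 8.30 with LPS (adjusted p 0.310, with 0.42 as its log2 fold change), and Rnf11, a partner of A20, had 63.9 ± 2.79 and 86.0 ± 0.0552 (log2 fold change 0.42, adjusted p 0.466). Otulin passed without control replicate 1 (log2 fold change 0.56, adjusted p 0.00344) and with the GC and length trend removed (0.45, adjusted p 0.0344). The TRAF family and its binders gave no calls among 4 tested of 10 genes, with Traf6, the ubiquitin ligase of Toll-like receptor signalling, at 72.3 ± 8.76 and 58.8 ± 16.4 (adjusted p 0.736) and Traip at 108 ± 6.16 and 90.6 ± 9.17 (adjusted p 0.742). Traf4, named after its values were seen, had a log2 fold change of 0.18 (adjusted p 0.876) but passed without control replicate 1 (0.61, adjusted p 0.0203), and its direction turned without control replicate 2 (-0.19). In the list of cell death inhibitors and RIP kinase complexes 6 of 10 genes were tested and none passed. Cflar, which encodes the caspase-8 inhibitor c-FLIP and has 3 records, had 0 and 6 counts in the controls and 19 and 12 after LPS, passing the low-count filter only through LPS (adjusted p 0.124), and Xiap had 53.2 ± 15.5 and 77.8 ± 18.5 normalised counts (adjusted p 0.478). The log2 fold change of Xiap was 0.87 without control replicate 2, against 0.52 with all libraries. Leaving out that library leaves Cflar with no control count, so that its fitted value then depends on the prior count. Cflar passed without the filter on low counts (adjusted p 0.00469 in edgeR) and with the replicate block (0.0123). With the filter it had to differ to be tested, so the p with the replicate block adds no separate support.

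Among TAK1 and IKK kinases 2 of 8 tested genes rose, of 13 listed. Ikbke, an inducible IKK-related kinase, went up 5.36-fold, from 150 ± 8.95 to 802 ± 64.1 normalised counts (adjusted p 1.47e-05). Map3k8, which encodes Tpl2, the kinase that ABIN-2 holds, rose from 19.3 ± 1.39 to 68.1 ± 7.41 (log2 fold change 1.80, adjusted p 0.00334). Tpl2 and its partner Tnip2 therefore gave different readings, a rise and no call, in a difference that was not itself tested.

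NOD receptors and CARD adaptors are the upstream partners of Ripk2 and of related adaptor complexes. They gave 3 calls, all rises, among 5 tested of 7 genes. Bcl10 passed the filter on low counts only through LPS and so had to differ to be tested. Nod2 reached the cut of that filter in 1 control library, which is not enough, and passed it with the LPS libraries. Nod2, the muramyl dipeptide receptor that signals through Ripk2, went up 9.54-fold, from 11.1 ± 6.17 to 98.8 ± 4.14 normalised counts (adjusted p 0.000163). On the log2 scale the rise of Nod2 was 3.25, against 3.86 without control replicate 1 and 2.66 without control replicate 2. Malt1, a paracaspase that can cleave A20, rose from 132 ± 29.4 to 413 ± 66.8 (log2 fold change 1.63, adjusted p 0.000907). Bcl10, its partner, rose from 5.49 ± 4.18 to 21.9 ± 0.477 (log2 fold change 2.15, adjusted p 0.0369) on 6 and 3 control counts. Its log2 fold change was 3.06 without control replicate 1 and 1.35 without control replicate 2, and its adjusted p was 0.118 without control replicate 2, 0.142 without LPS replicate 1, 0.129 without LPS replicate 2 and 0.248 by DESeq2. Of the 9 upstream receptors, 6 were tested and 3 rose: Tnfrsf1b, which encodes the TNF receptor 2 that TRAF1 joins, by 3.04, Cd14 by 2.26 and Tlr2 by 2.20 on the log2 scale. The receptor that recognises LPS, Tlr4, was named after its values were seen and had 49.2 and 138 normalised counts in the controls and 47.2 and 53.8 after LPS. The higher control stood apart from the other 3 libraries, and the log2 fold change of -0.94 did not pass (p 0.0346, adjusted p 0.269 in edgeR). Tlr4 passed as lower without control replicate 1 (-1.45, adjusted p 5.22e-10), without the filter on low counts (adjusted p 0.0268), with the replicate block (0.0226) and with the GC and length trend removed (0.00801), but was at 0.029 without control replicate 2 (adjusted p 0.965).

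**Figure D5:**
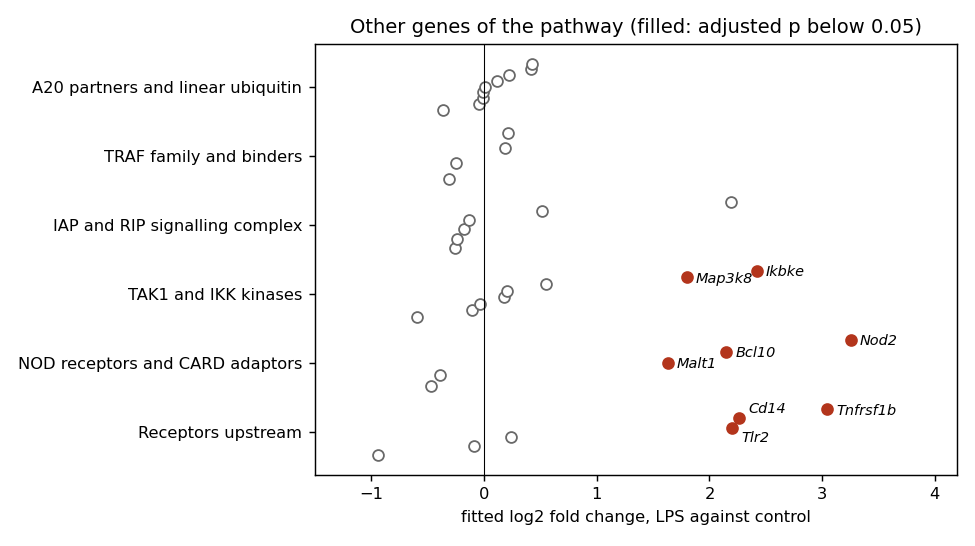
Fitted log2 fold change after LPS of the 38 tested genes of 6 role lists (points, 1 per gene, spread vertically within a list for legibility; filled and named where the adjusted p is below 0.05). The 8 filled points lie in the lower 3 lists, between 1.63 and 3.25.

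The records outside the 10 genes whose pattern over the 4 libraries lay closest to that of Tnfaip2, by Euclidean distance of centred log2(normalised count + 1), were Pim1, Cmpk2, Tgm2, Socs3 and Hp, at distances of 0.252 to 0.519. Pim1, a serine/threonine kinase gene, had 22.5 and 16.0 normalised counts in the controls and 239 and 202 after LPS. Like Tnfaip2 it was higher in replicate 1 of each group, a likeness that the choice by distance favours. Tgm2 and Hp shared it, with Tgm2 at only 1.41 and 0.844 in the controls. Cmpk2 (73.0 and 74.3) and Socs3 (125 and 128) were not higher in LPS replicate 1. The ranking rests on 4 libraries.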

How the data were processed

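The authors deposited 1 table of counts, whole numbers for each RefSeq record. It is called normalised, but column totals differ and low values show no gaps, so raw counts were assumed. Per the submitters' processing notes, HTSeq 0.6.1, TopHat2 2.0.10, Trimmomatic 0.33, Cufflinks 2.2.1 and CASAVA 1.8.2 were used on build mm10; the sources used here give neither their roles nor settings nor strand use. The libraries were depleted of ribosomal RNA, directional and random-primed, per the labels' protocols.

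RefSeq tables of GRCm38.p6 gave symbols to 32483 of 32915 records. Transcript length, GC content and own bases came from GENCODE M21. Records were kept by filterByExpr with a minimum count of 10 and scaled by TMM. Normalised counts are counts over the effective library size times its mean. LPS was compared with control over all 4 libraries by edgeR 4.0.16's quasi-likelihood test (R 4.3.3) with Benjamini-Hochberg adjustment over all 6981 records and a threshold of 0.05, and each p named adjusted comes from it unless DESeq2 (1.42.0) or limma-voom (3.58.1) is named. In simulated counts with known changes the fit recovered 51% of 2-fold and 90% of 4-fold changes, and 4.08% of its calls were false. The simulation gave all records the same spread and no GC gradient, unlike these libraries. A gene that did not pass may therefore still have changed. The floors cover counting error in the group without counts alone, and the exact intervals of rate ratios cover counting error only. The intervals of fitted log2 fold changes rest instead on the standard errors of the edgeR fit, which include its estimate of the spread between libraries. The libraries carry no molecular identifiers. Alternatives were other scalings, filters and tests, each library left out, a replicate block, summed records and, added after seeing the data, a GC and length trend.

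Members and lists were chosen with earlier results of these data known. The naming rule took all 10 members, up to 4 called genes per role list by p (or the 2 with the smallest p where none passed), and the 5 nearest patterns to the first tested member; Birc2, Tlr4, Traf4, Tbkbp1, Card9 and Tbk1 fall outside it and were named after their values were seen.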

Additional observations from a re-analysis of the deposited data

How the results depend on the processing

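Over 14 alternatives none of the 7 tested genes changed direction. Tnfaip2, Traf1 and Ier3 kept their call in every one, Tnip2 (13 alternatives, since a minimum count of 20 removed it) was never called, and Tnip3, Birc3 and Ripk2 lost theirs in 1. That alternative was no scaling factor, where 3 of the 10 genes, 4 of the other pathway genes and 120 records (109 higher and 11 lower, against 267 and 119) were called, with log2 fold changes of 2.65 for Tnip3 (adjusted p 0.168), 1.91 for Birc3 (0.103) and 1.77 for Ripk2 (0.300); the cause was not tested. Map3k8, Malt1 and Tlr2 lost their call there as well, and Bcl10 lost its call in 6 alternatives. With 1 library left out, 204 to 1304 records were called (1122 without control replicate 1, 1304 without control replicate 2, 233 without LPS replicate 1, 204 without LPS replicate 2), while 6 of the 10 genes and 7 to 12 of the other pathway genes were called each time. Without control replicate 1, Otulin, Traf4, Tbkbp1 and Tlr4 were added to those calls, and without control replicate 2, Card9, Xiap, Cflar and Tbk1. Among them Traf4 (0.18), Tbkbp1 (0.18) and Tlr4 (-0.94) had log2 fold changes of 0.61, 0.65 and -1.45 without control replicate 1 and changed direction without control replicate 2, to -0.19, -0.21 and 0.029. A group left with 1 library is there assumed to vary like the other. The replicate block gave 689 calls, with the 6 genes among them; same-numbered libraries deviated together with a correlation of 0.242 over tested records, but the labels do not say that the numbers pair them. With the GC and length trend removed 719 records were called, which held all 386 of the reported ones. Few counts stand behind Tnip2 (12 to 19 per library), behind Traf1 in the controls (0 and 2) and behind Tnip3 and Ripk2 in control replicate 1 (6 and 7), which limits the precision of their fold changes.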
